A study of Saccharomyces cerevisiae with 31 samples.

Results

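How steeply each transcript changes in level as budding yeast (Saccharomyces cerevisiae) grow after elutriation was compared between cells arrested through their cyclin-dependent kinase and wild-type (WT) cells. Elutriation sorts cells by size in a centrifuge. The comparison covers 17 of the 31 libraries and 4240 of the 6713 genes in the authors' deposited table: the genes with a score in all 4 elutriated series and a median read count of at least 10 in experiment 1. Of the 5495 genes scored in all 4 series, 1255 fell under the read minimum. The 67 genes just inside it, at 10 reads, had median scores of 0.00256, 0.0157 and 0.00492 per fl in arrest and 0.138 per hour in WT, and the 67 genes just outside it, at 9.5 reads, had 0.003, 0.0191 and 0.00132 per fl in arrest and 0.102 per hour in WT.

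The arrested cells carried Cdc28-as, an analog-sensitive form of the kinase that the bulky inhibitor 1NM-PP1 blocks. They gave 3 series: experiment 1 with 5 libraries from 15.23 to 50.77 fl of cell size, experiment 2 with 3 libraries from 14.92 to 41.8 fl, and experiment 3 with 3 libraries from 18.61 to 66.46 fl. The WT cells gave 1 series of 6 libraries from 2 to 7 h. Per the labels, both genotypes were elutriated and then received 1NM-PP1, grew in YEP medium with 1% ethanol, and had Candida albicans cells mixed in before RNA extraction. An unelutriated pair, a Cdc28-as time course of 8 libraries and a WT time course of 6, was used only to set values beside the elutriated ones. Further strain background, and whether the series came from separate cultures, are not given in the labels. Hours are not given for the arrested cells and sizes are not given for WT, so genotype, arrest, and a slope on size or on time cannot be told apart in this comparison.

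Cdc28 bound to the G1 cyclins drives Start, the commitment of a G1 cell to division. At Start the transcription factors SBF and MBF switch on the G1/S genes, whose products copy the DNA and build the bud. A kinase arrest stops division while growth goes on, so cells become large. Cells in ethanol respire, run gluconeogenesis and the glyoxylate cycle, and express many genes that glucose represses. Making ribosomes is the main cost of growth, and its genes usually move opposite to the stress genes driven by Msn2 and Msn4.

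Each series has 1 score per gene, and how it was computed is not given. It is read here as a slope of the level relative to an early library, per fl in arrest and per hour in WT. These units are assumed. The slope of a level present in the first library alone was the score of 104, 111 and 96 genes in experiments 1 and 3 and WT. In experiment 2 only 2 genes had it. Among the 4240 genes tested, 0 had it in each arrest series, and 50 had it in WT, tied at -0.143 per hour. Over the 4240 genes the median score was 0.00909, 0.0115 and 0.00241 per fl in arrest and 0.226 per hour in WT. The upper quartile was 0.0338, 0.03 and 0.0108 per fl and 1.82 per hour. The highest score was 2.24, 0.732 and 0.906 per fl and 378 per hour. In WT, cytosolic ribosomal protein genes had a median score of 10.4 per hour and glycolysis genes 15.9. How such high WT scores arose was not tested. Scores above 0 made up 65.4%, 72.6% and 59.5% of the genes in arrest and 73.2% in WT. Because the units differ, each score was turned into a percent rank within its series, from 0 for the lowest slope to 100 for the highest, and the 3 arrest ranks were averaged. A rank is relative: it places a gene among the other genes and does not say whether its amount per cell changed. Across genes the arrest series correlated with each other at Spearman's rho of 0.422, 0.404 and 0.399 (n = 4240 genes). Each of them correlated with WT at 0.0805, -0.00409 and -0.0234, and the arrest mean with WT at 0.0238. These are descriptions over genes that share libraries, and genes are not independent replicates. The plot of arrest and WT ranks shows this spread.

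**Figure D1:**
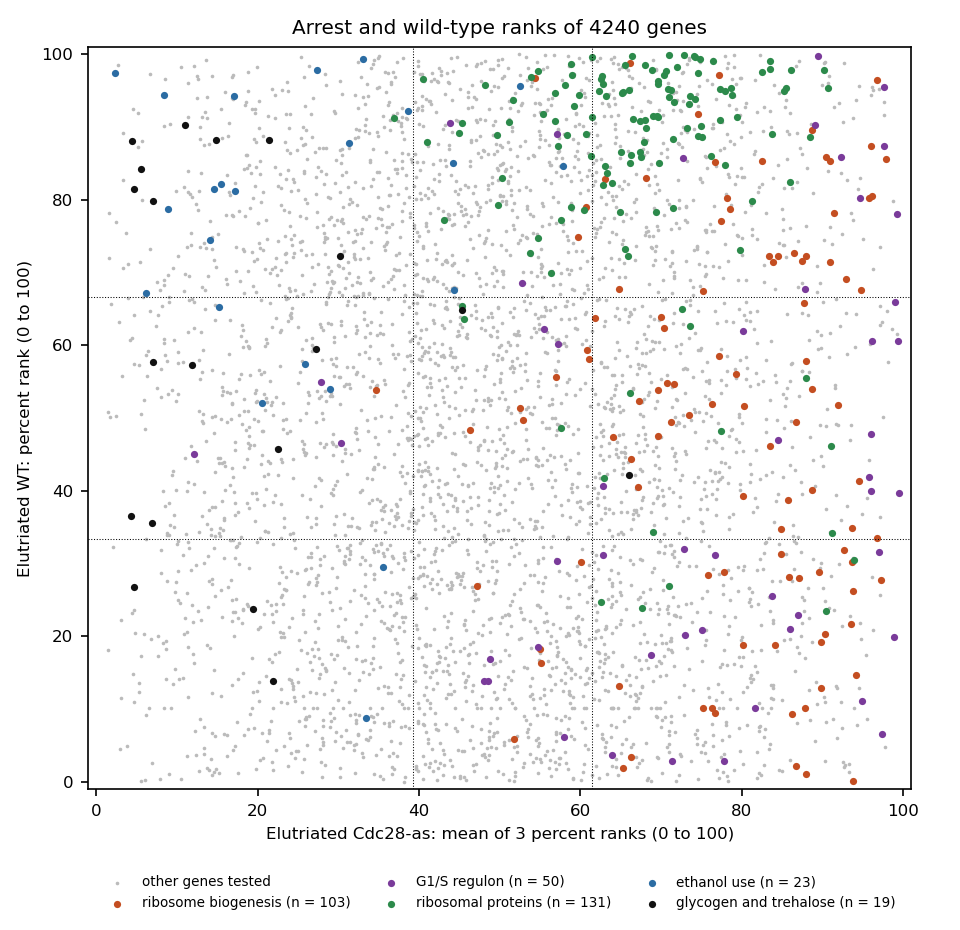
Percent rank of each of the 4240 genes: the mean of 3 arrest ranks on the x axis and the WT rank on the y axis, both from 0 to 100, with 5 gene lists in colour and dotted lines where the low and high groups end. Ribosome biogenesis genes lie at the right over the whole height (median 80.2 in arrest, 51.7 in WT), ribosomal protein genes at the upper right, and glycogen and trehalose genes at the left.

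No single gene passed a test of arrest against WT, but on percent ranks this test had little room to pass one. By limma's moderated test on the percent ranks, with Benjamini-Hochberg adjustment over all 4240 genes, 0 genes (0%) were called above WT and 0 (0%) below, with a lowest adjusted p of 0.204. At an unadjusted p under 0.05 there were 360 genes above and 377 below. With 1 WT series, the spread is taken from the arrest series alone, the median SE of a difference was 20.4 percent ranks, and an exact permutation of 3 series against 1 cannot go below p = 0.25. Other settings gave 0 calls as well, except that scores divided by their median absolute deviation gave 8 genes above and 999 below. That setting keeps the long upper tail of the WT scores, from a median of 0.226 to a highest of 378 per hour. The cause of these calls was not tested. On percent ranks a difference cannot exceed the length of the scale, and the lowest SE among the named genes was 16.7 percent ranks. The most negative and most positive differences over all genes, -95.8 and 93.6, nearly span the scale and were still not called. The 0 calls on percent ranks therefore do not show that single genes are alike in arrest and WT. The same limit holds for the adjusted p-values of single genes given below. Within arrest, limma's test of the 3 ranks against the middle rank of 50 also called 0 genes, with a lowest adjusted p of 0.0589 and 1335 genes at an unadjusted p under 0.05. It called 190 high and 209 low genes at a minimum of 30 reads, and 116 and 104 on normal scores. Gene values below are therefore given as ranks and not as changes.

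Counts of genes describe the pattern. All 3 arrest ranks lay above the WT rank for 1304 genes (30.8%) and below it for 1418 (33.4%). The arrest mean was itself ranked from 0 to 100, and a gene is called high where its place is above 66.7 and low where it is below 33.3. For the arrest mean rank these limits lie at 61.5 and 39.2. High in arrest and low in WT were 463 genes (10.9%), low in arrest and high in WT 463 (10.9%), high in both 484 (11.4%) and low in both 475 (11.2%). With 9 such groups in all, these shares are near equal. Asking the same of all 3 arrest series left 151, 153, 171 and 151 genes. The shares of all genes given above are the background for each list count below. Which functions fill each group is what differs.

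The WT rank also moved with read level. In 5 classes of 848 genes by read count, from 10 to 17 reads up to 83 to 885 reads, the median arrest mean rank was 48.9, 48.6, 50.3, 48.5 and 53.8, and the median WT rank 38.5, 41.0, 43.6, 56.0 and 75.9. Spearman's rho with the read count was 0.0354 for the arrest mean and 0.330 for WT. Abundant functions therefore rank high in WT and less so in arrest, and the part of read level in the results was not tested. For many of the lists, a value from ranks taken within 20 bins of similar read count is also given, an alternative chosen after seeing the data, and the plot of list differences shows it for every list. The plot of rank by read level shows the WT line apart from the arrest lines.

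**Figure D2:**
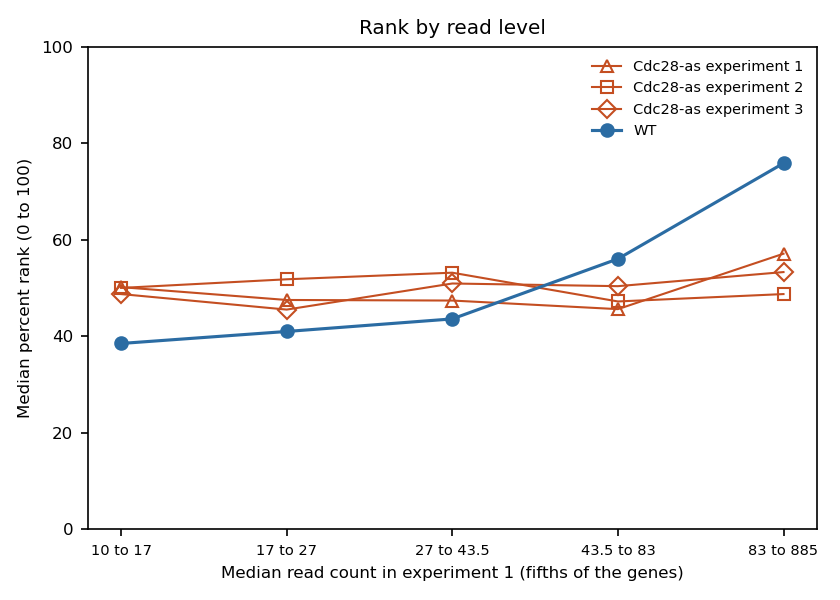
Median percent rank (y axis, 0 to 100) of 5 classes of 848 genes by median read count in experiment 1 (x axis), for the 3 arrest series and WT. The WT line runs up to 75.9 in the class of most reads, and the arrest lines stay between 45.5 and 57.1.

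A further limit touches genes with the lowest WT scores. If the level is taken relative to the first library, a level that only falls cannot give a slope under -0.257 per hour, yet 135 of the 4240 genes (3.18%) scored lower. Such a score needs a level that first climbed, or another starting library. These genes were 45 of the 463 high in arrest and low in WT (9.72%) and 36 of the 475 low in both (7.58%), against 0 in the groups that were high in WT. By the same reckoning 37 genes lay under the limit of -0.0346 per fl in arrest experiment 1, and 0 under those of experiments 2 and 3.

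CDC28 itself, the gene of the inhibited kinase, had deposited scores of 0.286, 0.127 and 0.0875 per fl in arrest and 3.01 per hour in WT, and ranked 99, 97.9 and 99.1 in arrest and 79.9 in WT. It was near the top in every arrest series. The G1 cyclin gene CLN2 ranked 99.8, 99.1 and 99.4 in arrest and 39.8 in WT, so all arrest ranks lay above WT, by 59.7 ± 16.7 (limma difference and SE, adjusted p = 0.204). CLN1, its close relative, ranked 91.6, 95.6 and 76.4 in arrest and 67.7 in WT. CLN3, the upstream G1 cyclin, ranked 83.5, 89.8 and 43.2 in arrest and 76.1 in WT, with WT inside the range of the arrest series. SIC1, the inhibitor of the B-type cyclin kinases, ranked 5.81, 72.1 and 26.4 in arrest and 89.3 in WT, and the arrest series differed widely. WHI5, the Start repressor, had 1 read and was not among the genes tested.

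Genes of the G1/S wave had a high median rank in arrest and not in WT. The 50 tested members, of 61 listed, had a median arrest mean rank of 79 and a median WT rank of 40.4, against 49.8 and 50 over all genes. The median difference, arrest minus WT, was 35.1 percent ranks, with 42, 34.4 and 25.4 in experiments 1 to 3, and 34.2 within bins of read count. Over all genes it was -0.831. All 3 arrest ranks were above WT for 30 members (60%) and below for 6 (12%), against 30.8% and 33.4% of all genes. High in arrest and low in WT were 17, and 0 the reverse, against 10.9% of all genes for each. CSM3, which helps keep stalled replication forks stable, ranked 99.9, 95.4 and 96.7 in arrest and 6.57 in WT. RFA2, a subunit of the single-strand DNA binding complex RPA, ranked 98.9, 92.1 and 93.6 in arrest and 11.1 in WT. SMC3, a cohesin subunit, ranked 99.4, 92.1 and 41.9 in arrest and 2.84 in WT, so experiment 3 stood apart from the other arrest series. The WT score of SMC3 lies under the limit for a falling level given above. The MBF site ACGCGT (MCB) stood within 250 bases before the start of 25 of 50 members, against 3.05% of the 4199 tested genes found in R64. Windows with it are shown for CSM3 (chrXIII:366894-366929 on the plus strand) and RFA2 (chrXIV:48152-48199 on the plus strand), the members with the largest differences, from the RefSeq R64 genome, 5′ to 3′ along the gene, the site in capitals.
CSM3: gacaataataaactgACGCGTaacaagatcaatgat
RFA2: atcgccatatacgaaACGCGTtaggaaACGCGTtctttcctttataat
The RFA2 window holds the site at both marked places. A match is a run of letters in this window and not a measured binding site.

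The CLB2 cluster, spindle, origin and polarity lists lay closer together in the arrest and WT series. The 17 genes of the CLB2 cluster had medians of 58.4 in arrest and 51.6 in WT, with a median difference of 15.7 that was 1.42 within read bins. Spindle and kinetochore genes (28) had 49.7 in arrest and 39 in WT, with a median difference of 13.5 that was 6.92 within read bins. KAR1, needed to duplicate the spindle pole body, was one exception and ranked 85.2, 80.2 and 81.1 in arrest and 1.26 in WT. The WT score of KAR1 lies under the limit for a falling level given above. Origin licensing genes (10) had 51 in arrest and 42.9 in WT, a median difference of 6.18 that was 2.04 within read bins. The polarity kinase gene CLA4 ranked 96.7, 74.2 and 77.3 in arrest and 6.1 in WT, and the polarity and septin list of 41 genes had 54.7 in arrest and 45.9 in WT, a median difference of 10.2 that was 6.45 within read bins.

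Genes that build ribosomes ranked high in arrest as a group, while WT spread them over the whole range. The 103 tested ribosome biogenesis genes, of 123 listed, had a median rank of 80.2 in arrest and 51.7 in WT; 88 were high in arrest and 1 was low, against 33 high and 33 low in WT. The median difference was 22.1, with 22.8, 34.2 and 20.1 in experiments 1 to 3, and it was 31.1 within read bins. All 3 arrest ranks were above WT for 62 members and below for 6, beside 30.8% and 33.4% of all genes. YTM1, which helps assemble the large ribosomal subunit, had the largest positive difference, 93.6 ± 16.9 (limma difference and SE, adjusted p = 0.204). Its deposited scores were 0.0733, 0.0839 and 0.0468 per fl in arrest and -1.15 per hour in WT, and its ranks 89.5, 94.8 and 97 in arrest and 0.106 in WT. The WT score lies under the limit of -0.257 given above. DIM1, the methylase of the small-subunit rRNA, ranked 91.2, 95.6 and 95.5 in arrest and 14.6 in WT, with a WT score of -0.0982 per hour inside that limit. PWP2, of the small-subunit processome, ranked 83.4, 98.9 and 77.9 in arrest and 2.11 in WT. Its WT score lies under that limit. The PAC element CGATGAG stood before 70 of 103 members (68%), against 6.83% of all genes, and the RRPE core GAAAATT before 60 of 103 (58.3%), against 16.1%. Both elements together stood before 41 members (39.8%), against 2.43% of all genes. Windows with both are shown for YTM1 (chrXV:832642-832697 on the plus strand) and DIM1 (chrXVI:38964-39009 on the plus strand), with the elements in capitals on either strand.
YTM1: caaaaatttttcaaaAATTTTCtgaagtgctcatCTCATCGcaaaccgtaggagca
DIM1: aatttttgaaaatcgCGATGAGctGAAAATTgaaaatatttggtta
In the YTM1 window the elements read AATTTTC and CTCATCG, the reverse complements of RRPE and PAC, and in the DIM1 window both read forward, with PAC first.

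Polymerase genes for rRNA and tRNA, those of RNA polymerases I and III, were placed alike (25 tested): 72.4 in arrest and 41.1 in WT, a median difference of 25.8 (20.3, 38.3 and 18.8 in experiments 1 to 3), and 21.1 within read bins. Of these, 14 ranked above WT in every arrest series and 3 below. RPC31, a polymerase III subunit, had deposited scores of 0.263, 0.103 and 0.054 per fl in arrest and -0.215 per hour in WT, and ranked 98.9, 96.5 and 97.8 in arrest and 4.75 in WT. BRF1, of the polymerase III factor TFIIIB, ranked 87.2, 85.3 and 98.3 in arrest and 2.87 in WT. The WT score of BRF1 lies under the limit for a falling level given above. RNA polymerase II genes (8) had 66.2 in arrest and 57 in WT, with a median difference of 5.04. The RPC31 window at chrXIV:348583-348619 on the minus strand holds PAC as its reverse complement CTCATCG, shown in capitals.
RPC31: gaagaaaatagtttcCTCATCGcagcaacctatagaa
PAC stood before 8 of 25 genes of the 2 polymerases (32%).

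Mitochondrial ribosomal protein genes, whose products translate the messages of the mitochondrial genome, also had a higher median in arrest. Their 69 members had 68.7 in arrest and 54.4 in WT, with a median difference of 20.9 (26.9, 9.46 and 24.1 in experiments 1 to 3) and 24.4 within read bins. In every arrest series 38 members ranked above WT, and 14 below. MRPL35 ranked 95.9, 75.1 and 89.4 in arrest and 18.5 in WT, and MRPL11 89, 72.2 and 96.9 in arrest and 19.6 in WT. MRPS35 ranked 86, 57.6 and 91.1 in arrest and 0.153 in WT, with a WT score of -0.892 per hour, under the limit above. Nuclear pore and transport genes (50) had 57.2 in arrest and 48.1 in WT, a median difference of 16.1 that was 10.7 within read bins.

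Besides YTM1, RPC31, BRF1 and CSM3, 6 further genes led the set that was high in all arrest series and low in WT. MRT4, a ribosome assembly factor, ranked 98.2, 98.1 and 83.5 in arrest and 1.29 in WT. IMD4, an IMP dehydrogenase of guanine nucleotide synthesis, ranked 99, 99.1 and 80.2 in arrest and 2.25 in WT. URK1, the uridine kinase, ranked 98, 85.1 and 96.6 in arrest and 2.49 in WT. Nucleotide supply and translation thus appear among them. HGH1, a chaperone of translation elongation factor assembly, ranked 94.8, 94.8 and 88.2 in arrest and 1.99 in WT. ELP6, a subunit of the Elongator complex that modifies tRNA, ranked 98.1, 88.2 and 91.2 in arrest and 2.68 in WT. RRF1, the mitochondrial ribosome recycling factor, ranked 99.1, 95.9 and 91.6 in arrest and 8.62 in WT. The 3 arrest ranks of these 10 genes were all above 80 and did not overlap WT, but 7 of the 10 had WT scores under -0.257. They were picked for the size of this difference, so their values describe the extreme and carry no test of their own. The plot of named genes shows each value.

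**Figure D3:**
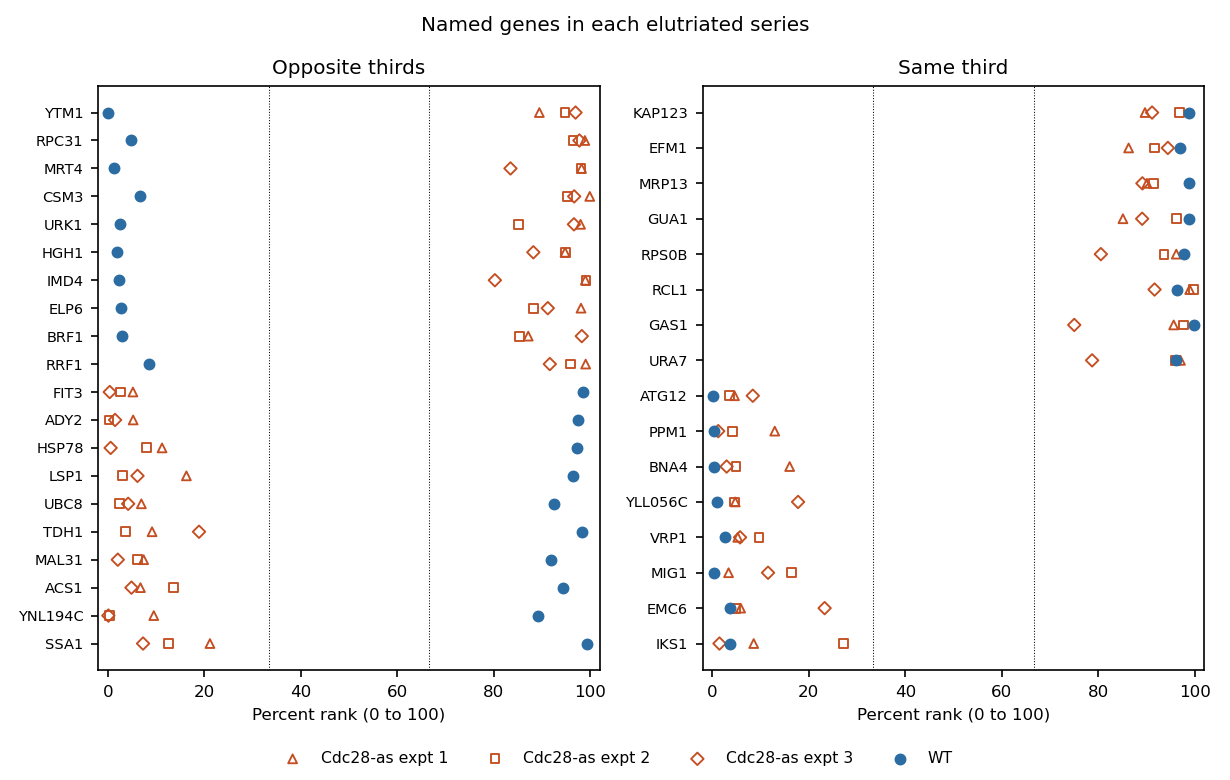
Percent rank (x axis, 0 to 100) of 36 named genes in the 3 arrest series (open symbols) and in WT (filled). On the left, 10 genes high in arrest and low in WT above 10 genes with the opposite pattern; on the right, 8 genes high in all 4 series above 8 genes low in all 4, with dotted lines at 33.3 and 66.7.

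Genes of ethanol use had the opposite pattern: low in arrest and high in WT. The 23 tested genes of ethanol use, the glyoxylate cycle and gluconeogenesis had a median rank of 25.9 in arrest and 81.5 in WT. The median difference was -56.5, with -53.7, -55.2 and -60.1 in experiments 1 to 3, the most negative of the 41 lists with tested genes, and -38.1 within read bins. Ranks were below WT in every arrest series for 19 members and above it for 1; 13 were low in arrest and high in WT, and 0 the reverse. ADY2, an acetate transporter, had deposited scores of -0.0189, -0.0253 and -0.0152 per fl in arrest and 30.8 per hour in WT, and ranked 5.25, 0.248 and 1.5 in arrest and 97.4 in WT. ACS1, which makes acetyl-CoA from acetate, ranked 6.76, 13.5 and 4.89 in arrest and 94.4 in WT. Both genes lay at the low end in every arrest series and near the top in WT. ALD4, the mitochondrial aldehyde dehydrogenase, ranked 13, 11.5 and 26.8 in arrest and 94.3 in WT. JEN1, the lactate and pyruvate permease, ranked 36, 30.7 and 15.3 in arrest and 97.9 in WT. The limma difference for ADY2 was -95.1 ± 16.8 (SE, adjusted p = 0.204).

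Glycolysis and fermentation genes (19) had 37.3 in arrest and 94.3 in WT, a median difference of -51.3 (-29.2, -64.9 and -51 in experiments 1 to 3) that was -51.7 within read bins. Below WT in all 3 arrest series were 17 members, and above it 0. TDH1, a glyceraldehyde-3-phosphate dehydrogenase, ranked 9.16, 3.6 and 18.9 in arrest and 98.2 in WT. PDC1, pyruvate decarboxylase, ranked 10.1, 22.7 and 7.46 in arrest and 87.5 in WT, and HXK1, a hexokinase, ranked 13.4, 10.9 and 17.7 in arrest and 87.6 in WT. In experiment 1 the glycolysis list was near the middle, with a median of 55.2, against 23.2 for the ethanol-use list. UBC8, a ubiquitin-conjugating enzyme of fructose-1,6-bisphosphatase turnover, ranked 6.95, 2.39 and 4.21 in arrest and 92.5 in WT. The maltose permease gene MAL31 ranked 7.42, 6.14 and 2.06 in arrest and 91.9 in WT. The 7 tested hexose transporter genes varied between series: HXT6 ranked 11.2, 85.7 and 22.3 in arrest and 92.3 in WT, and HXT7 3.24, 91 and 52.3 in arrest and 97.9 in WT. HXT6 and HXT7 are near-identical copies, as are several glycolytic pairs in part, so their reads may be shared.

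Storage carbohydrate genes were the lowest list in arrest. The 19 genes of glycogen and trehalose metabolism had a median rank of 11.9 in arrest and 59.5 in WT, where they spread widely. The median difference was -42 (-34.1, -45.5 and -48 in experiments 1 to 3), and -29.7 within read bins; all 3 arrest ranks were below WT for 15 and above for 0. TPS2, the trehalose-6-phosphate phosphatase, ranked 10.3, 1.5 and 1.36 in arrest and 88.1 in WT. TSL1, a large subunit of the same complex, ranked 7.89, 5.46 and 3.46 in arrest and 84.2 in WT. GLG1, a glycogenin that starts glycogen chains, ranked 12.2, 0.743 and 1.1 in arrest and 81.5 in WT. In each, the arrest ranks lay at the low end and WT above 80. The general stress and oxidative defence list (36 genes) was alike: 25.9 in arrest and 66.5 in WT, a median difference of -39 (-33.7, -47.1 and -42.7 in experiments 1 to 3) and -34.9 within read bins, with 27 members below WT in all 3 series and 0 above. HSP12, a membrane-protecting small heat shock protein gene, had deposited scores of -0.0371, -0.0231 and -0.0134 per fl in arrest and 2.58 per hour in WT, and ranked 0.625, 0.79 and 3.31 in arrest and 78.1 in WT. Its score in experiment 1 lies under the limit of -0.0346 given above. DDR2, a stress-induced gene, ranked 9.73, 4.61 and 13.1 in arrest and 90.4 in WT. GPD1, which makes glycerol-3-phosphate, ranked 9.02, 0.342 and 1.73 in arrest and 75.4 in WT. The stress response element AGGGG (STRE), bound by Msn2 and Msn4, stood before 19 of 36 stress genes (52.8%) and 8 of 19 storage genes (42.1%), against 19.4% of all genes. Windows with repeated elements are shown for TSL1 (chrXIII:70378-70478 on the plus strand), DDR2 (chrXV:231911-232005 on the minus strand) and HSP12 (chrVI:107009-107085 on the plus strand), with AGGGG or its reverse CCCCT in capitals.
TSL1: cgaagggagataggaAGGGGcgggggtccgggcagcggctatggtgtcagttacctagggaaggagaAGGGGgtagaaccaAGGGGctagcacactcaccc
DDR2: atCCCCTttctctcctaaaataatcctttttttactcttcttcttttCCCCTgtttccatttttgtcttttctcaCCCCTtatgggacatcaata
HSP12: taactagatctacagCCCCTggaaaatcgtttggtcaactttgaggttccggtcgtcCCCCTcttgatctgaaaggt
The TSL1 and DDR2 windows hold 3 elements each and the HSP12 window 2.

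Chaperone genes were mixed. The 40 members had 51.7 in arrest and 79.5 in WT, with 8 low in arrest and high in WT and 9 high in both. Several heat-inducible members lay at the low end of arrest. HSP104, the cytosolic disaggregase, ranked 33.4, 1.29 and 1.54 in arrest and 98.4 in WT. SSA4, a stress-induced Hsp70, ranked 7.84, 4.82 and 3.79 in arrest and 84.1 in WT. SSA1, an abundant Hsp70, ranked 21.2, 12.5 and 7.3 in arrest and 99.3 in WT. HSP78, the mitochondrial disaggregase, ranked 11.2, 8.08 and 0.578 in arrest and 97.3 in WT. Vacuolar genes (24) had 36.9 in arrest and 76.7 in WT, a median difference of -38.6 (-29, -42.5 and -41.9 in experiments 1 to 3) and -26.5 within read bins. Proteinases were among its leading members. PEP4, proteinase A, ranked 21.4, 2.21 and 15.8 in arrest and 91.4 in WT. PRC1, carboxypeptidase Y, ranked 30.01, 6.33 and 14.5 in arrest and 93.9 in WT. LSP1, a core protein of the eisosomes under the plasma membrane, ranked 16.3, 3.05 and 6.14 in arrest and 96.5 in WT.

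Daughter-specific and mitotic-exit genes, many of which separate daughter from mother, had 30.3 in arrest and 72.7 in WT (16 genes). Their median difference was -39.7 (-40.4, -19.9 and -30.02 in experiments 1 to 3) and -33.2 within read bins, and all 3 arrest ranks were below WT for 11 and above for 3. CTS1, the chitinase that cuts the septum, had deposited scores of -0.0205, -0.0257 and -0.0174 per fl in arrest and 1.37 per hour in WT, and ranked 4.21, 0.177 and 0.318 in arrest and 72 in WT. EGT2, a wall protein of cell separation, ranked 2.87, 60.6 and 1.85 in arrest and 95.2 in WT, with experiment 2 away from the other arrest series. DSE2 ranked 4.02, 26.3 and 3.68 in arrest and 73.5 in WT. The histone list (10 genes, the variant gene HTZ1 among them) had 46.8 in arrest and 83 in WT. Its median difference of -38.3 was -14.9 within read bins, and 7 genes were below WT in all 3 series. HHF1, a histone H4 gene, ranked 20.2, 3.76 and 36.5 in arrest and 89.8 in WT. HTZ1, the H2A.Z variant, ranked 6.31, 18.3 and 17.1 in arrest and 69.5 in WT. The paired histone genes are near-identical, so reads may be split between copies.

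Respiratory genes were near the middle in arrest and high in WT. Nuclear genes of oxidative phosphorylation (39) had 49.8 in arrest and 89.6 in WT, a median difference of -39.6 (-21.8, -54.7 and -35.1 in experiments 1 to 3) and -20.1 within read bins. Every arrest rank was below WT for 32 members and above it for 1. They were abundant, with a median of 170.0 reads against 34 over all genes. CYT1, cytochrome c1, ranked 76.5, 14.3 and 46.8 in arrest and 98.5 in WT. TCA cycle genes (16) had 50.7 in arrest and 89.6 in WT, and 13 were below WT in all 3 series. LSC1, a subunit of succinyl-CoA ligase, ranked 23.1, 24.4 and 28.6 in arrest and 99.7 in WT. CIT1, the mitochondrial citrate synthase, ranked 67.7, 18.7 and 16.6 in arrest and 98.6 in WT. In both lists experiment 1 ranked the genes higher than experiments 2 and 3. The 28 listed genes of the mitochondrial genome had no score in all 4 series and were not tested.

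Sterol and fatty acid synthesis genes (35) had 52.7 in arrest and 79.6 in WT, with 8 low in arrest and high in WT and 11 high in both. ERG28, a scaffold of sterol enzymes, ranked 4.56, 9.82 and 28.8 in arrest and 97 in WT. ERG11, the lanosterol demethylase, ranked 63.8, 26.2 and 23.8 in arrest and 99.5 in WT. The most negative single difference belonged to FIT3, a wall mannoprotein that retains siderophore iron. Its deposited scores were -0.0189, -0.0184 and -0.0172 per fl in arrest and 45.9 per hour in WT, its ranks 5.2, 2.65 and 0.389 in arrest and 98.5 in WT, and the limma difference was -95.8 ± 16.8 (SE, adjusted p = 0.204). The iron and copper list as a whole (23 genes) had 39.7 in arrest and 61 in WT. Of its genes 5 were low in arrest and high in WT and 3 the reverse, beside 10.9% of all genes for each. Together with ADY2, ACS1, HSP78, LSP1, UBC8, TDH1, MAL31, SSA1 and the uncharacterised YNL194C, FIT3 made up the 10 leading genes low in all arrest series and high in WT. All their arrest ranks lay under 22, and all their WT ranks above 89. The plot of list medians sets all 41 lists side by side.

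**Figure D4:**
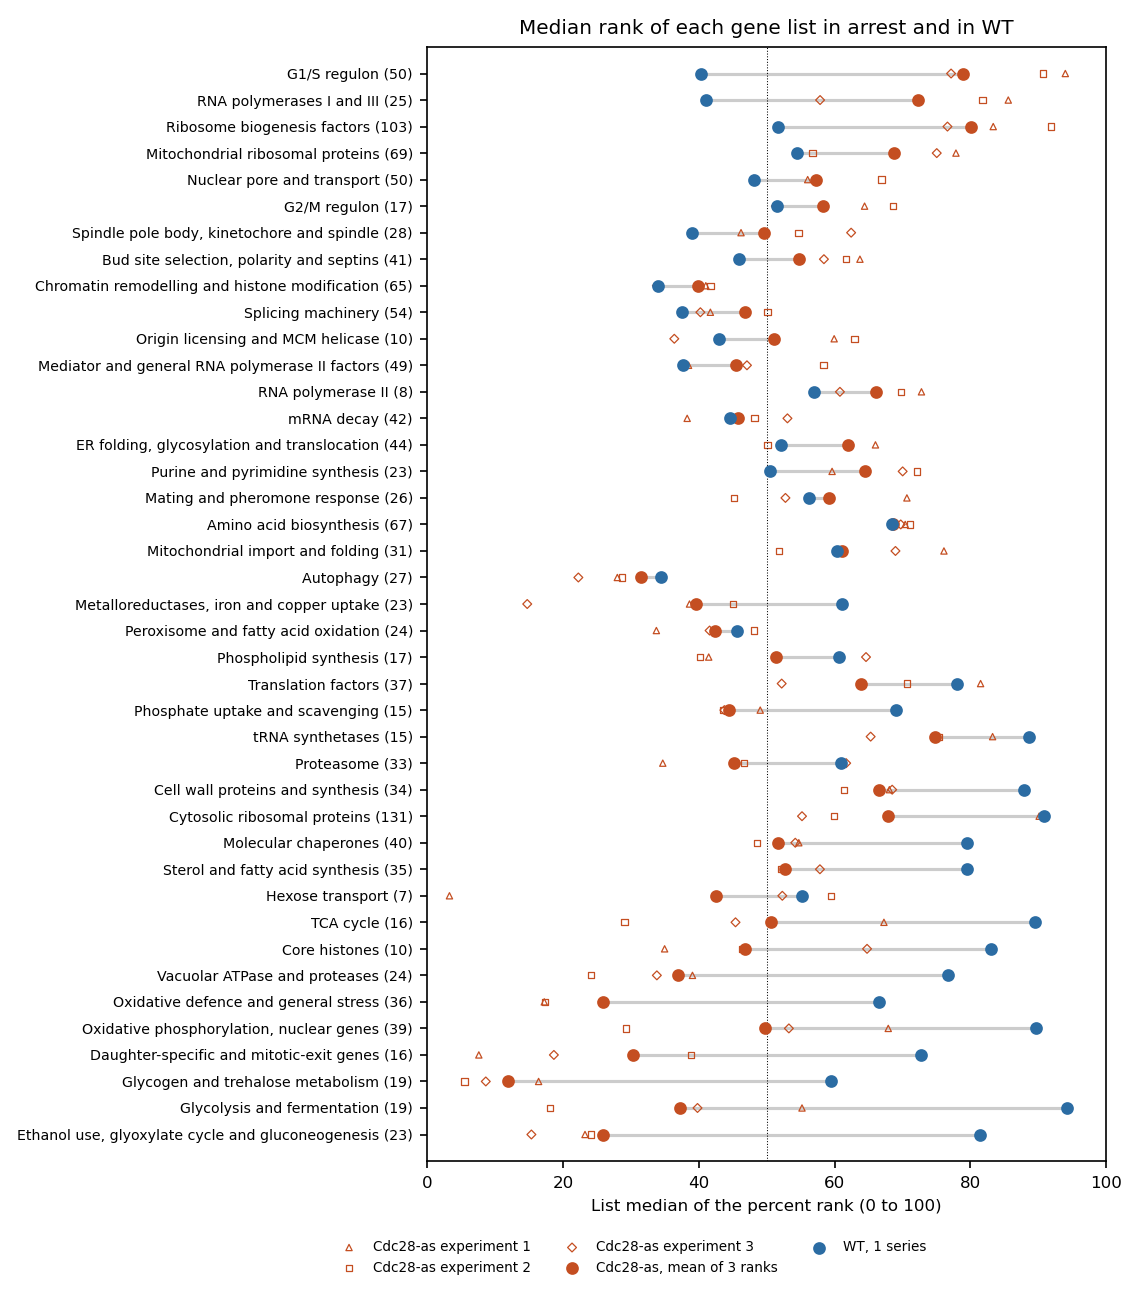
Median percent rank (x axis, 0 to 100) of each gene list with tested members, with the number of genes in brackets: open symbols for the 3 arrest series, filled orange for the arrest mean and filled blue for WT. G1/S, polymerase I and III and ribosome biogenesis genes lie to the right in arrest, and ethanol, glycolysis, storage and stress genes to the left of WT.

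Most ribosomal protein genes were high in both. Of the 131 tested cytosolic ribosomal protein genes, 81 were high in arrest and in WT, beside 11.4% of all genes, and 0 were low in both. Their median rank was 67.8 in arrest and 90.9 in WT. The arrest series did not place them alike: the list medians were 90.2, 59.9 and 55.2 in experiments 1 to 3. The median difference of -20.7 was -5.82 with ranks taken within read bins, and the part of read level in it was not tested. RPS0B ranked 96.2, 93.6 and 80.6 in arrest and 97.9 in WT. Many of these genes exist as near-identical pairs, whose reads may be shared. tRNA synthetase genes (15) had 74.8 in arrest and 88.6 in WT, with 9 high in both. Translation factor genes (37) had 64 in arrest and 78.1 in WT, with 13 high in both. TEF1, a gene of elongation factor 1A, ranked 85.8, 9.38 and 52.2 in arrest and 98 in WT, and its near-identical copy TEF2 83.7, 6.8 and 40.2 in arrest and 96.1 in WT.

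Amino acid biosynthesis genes (67) had medians of 68.6 in arrest and 68.4 in WT, and 25 were high in both. Their members differed in which group they joined, with 12 high in arrest and low in WT and 2 the reverse, beside 10.9% of all genes for each. ARG4, argininosuccinate lyase, ranked 69.3, 50.2 and 85.8 in arrest and 68.4 in WT. Cell wall genes (34) had 66.6 in arrest and 87.9 in WT; 18 were high in both and 7 low in arrest and high in WT. GAS1, a glucan-remodelling enzyme, ranked 95.6, 97.7 and 75 in arrest and 99.8 in WT. CWP1, a wall mannoprotein, ranked 6.29, 3.27 and 0.436 in arrest and 82.8 in WT, at the other end in arrest.

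The leading genes high in all 4 series included more of the ribosome pathway. KAP123, an importin that carries ribosomal proteins, ranked 89.7, 96.9 and 91.2 in arrest and 98.8 in WT. RCL1, of small-subunit rRNA processing, ranked 99, 99.7 and 91.7 in arrest and 96.4 in WT. EFM1, a methyltransferase of elongation factor 1A, ranked 86.3, 91.7 and 94.4 in arrest and 97 in WT. Nucleotide synthesis was there as well. GUA1, the GMP synthase, ranked 85.1, 96.3 and 89.1 in arrest and 98.8 in WT. URA7, a CTP synthase, ranked 97.1, 96.1 and 78.7 in arrest and 96.1 in WT. MRP13, a mitochondrial ribosomal protein gene, ranked 90.1, 91.5 and 89.2 in arrest and 98.9 in WT.

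Autophagy genes had low medians in both, but within read bins the WT median lay nearer the middle. Of 27 tested autophagy genes, 11 were low in both, beside 11.2% of all genes, and the medians were 31.5 in arrest and 34.4 in WT. The median difference of -1.1 was -11 within read bins, where the medians were 32.6 in arrest and 45 in WT. ATG12, a ubiquitin-like protein of autophagosome formation, had deposited scores of -0.0198, -0.0172 and -0.0101 per fl in arrest and -1.3 per hour in WT, and ranked 4.59, 3.57 and 8.38 in arrest and 0.0825 in WT. ATG12 was picked as a leading gene low in all 4 series. Its WT score is the lowest of the list, whose median WT score was 0.0624 per hour. Chromatin remodelling and histone modification genes (65) had 39.8 in arrest and 33.9 in WT. Of these, 17 were low in both, 9 high in arrest and low in WT and 8 the reverse. Over all genes these shares were 11.2%, 10.9% and 10.9%. Splicing genes (54) had 46.7 in arrest and 37.5 in WT, with 11 low in both, beside 11.2% of all genes. MIG1, the repressor of glucose-repressed genes, ranked 3.36, 16.5 and 11.5 in arrest and 0.318 in WT. VRP1, an actin regulator, ranked 5.27, 9.68 and 5.74 in arrest and 2.54 in WT. PPM1, which methylates protein phosphatase 2A, ranked 12.9, 4.19 and 1.21 in arrest and 0.295 in WT. The other leading genes low in all 4 series were BNA4, YLL056C, EMC6 and IKS1, with WT ranks from 0.389 to 3.69. Of the 8 leading genes, 6 had WT scores under -0.257.

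The 4 groups also differed in read count, coding parts and promoter motifs. Read count is not independent of the groups: it set the gene filter, and its rho with the WT rank was 0.330. Genes high in both had a median of 67.75 reads and 12.7% had more than 1 coding part, against 34 reads and 6.10% over all genes. Ribosomal protein genes made up 81 of the genes high in both. Genes high in arrest and low in WT had 27 reads, genes low in arrest and high in WT 46.5, and genes low in both 26.5. PAC stood before 16.7% of genes high in arrest and low in WT, 10.8% of those high in both, 2.85% of those low in arrest and high in WT and 1.91% of those low in both, against 6.83% of all. STRE stood before 10.9%, 10.4%, 34.2% and 28.5% in that order, against 19.4%. PAC was more frequent in both groups that were high in arrest, and STRE in both groups that were low in arrest. The 287 genes with PAC had a median rank of 70.1 in arrest and 47.9 in WT, and the 816 genes with STRE 37.3 in arrest and 54.4 in WT. Genes with MCB (128) had 57.4 in arrest and 41.5 in WT, and the 141 with the SBF site CGCGAAA (SCB) 57.3 in arrest and 46.6 in WT. The Rpn4 core GGTGGCA (PACE), before 24 of 33 proteasome genes, marked 107 genes with 46.4 in arrest and 62.9 in WT. Both strands were searched, and MCB and SCB can overlap in their shared CGCG. For the Rap1 core ACCCATA, the Hap complex box CCAAT, the Gcn4 site TGACTCA and the Ste12 site TGAAACA, the median difference of genes with the motif lay between -1.05 and 6.34.

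Proteasome genes (33) had 45.2 in arrest and 60.9 in WT, a median difference of -18.5 that was -6.45 within read bins. RPT3, an ATPase of the proteasome cap, ranked 25.4, 34.4 and 44.7 in arrest and 95.4 in WT. Phosphate uptake genes (15) had 44.4 in arrest and 69.1 in WT. The phosphate transporter gene PHO89 ranked 6.92, 87.7 and 15.6 in arrest and 97.6 in WT, with experiment 2 apart. Median differences were 2.44 for purine and pyrimidine synthesis (23 genes), 3.54 for folding and translocation in the endoplasmic reticulum (44), 1.08 for mating (26), -0.314 for mitochondrial import (31), -7.16 for peroxisomes (24) and -8.84 for phospholipid synthesis (17). Several of these values depended on the setting. At a minimum of 30 reads they were 36.4 for purine and pyrimidine synthesis and 17.1 for the endoplasmic reticulum list, and leaving out 1 experiment gave from -5.11 to 10.1 for purine and pyrimidine synthesis. Within read bins they were 8.33, 7.63 and, for phospholipid synthesis, -2.67. Those of Mediator and general polymerase II factors (49 genes) and mRNA decay (42) were 5.42 and 3.83, and -0.629 and -1.02 within read bins. Over the 41 lists the median difference was above 0 in all 3 experiments for 13, below 0 in all 3 for 20 and mixed for 8. All 3 share the lone WT series, so their agreement in sign is partly fixed by it.

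The unelutriated pair gave other list differences. Scores above 0 made up 3.21% of the genes in its Cdc28-as series and 33.9% in its WT series. In the elutriated series they made up 59.5% to 73.2%, so ranks in the unelutriated pair mostly order scores below 0. The arrest mean correlated with the unelutriated Cdc28-as rank at a rho of 0.172 across 4093 genes, and the elutriated WT with the unelutriated WT at 0.176. G1/S genes again ranked higher in Cdc28-as, with medians of 77.5 in Cdc28-as and 61.1 in WT, and mitochondrial ribosomal protein genes with 61.9 and 28.8 in the same order. Ribosome biogenesis genes did not: their medians were 9.13 in Cdc28-as and 35.4 in WT. RNA polymerase I and III genes did not either, with 29.1 and 34.6 and a median difference of -3.59. Median differences were -25.3 for Mediator and general polymerase II factors and -18.5 for splicing. In the elutriated series these were 5.42 and 8.96. Glycolysis, storage and daughter-specific genes had differences of -23.5, -13.8 and -18.4, with the sign of the elutriated pair. Ethanol-use, stress, vacuolar and oxidative phosphorylation genes had 0.44, 2.91, 3.64 and 5.79. These differences between the pairs were not tested. The plot of list differences shows them.

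**Figure D5:**
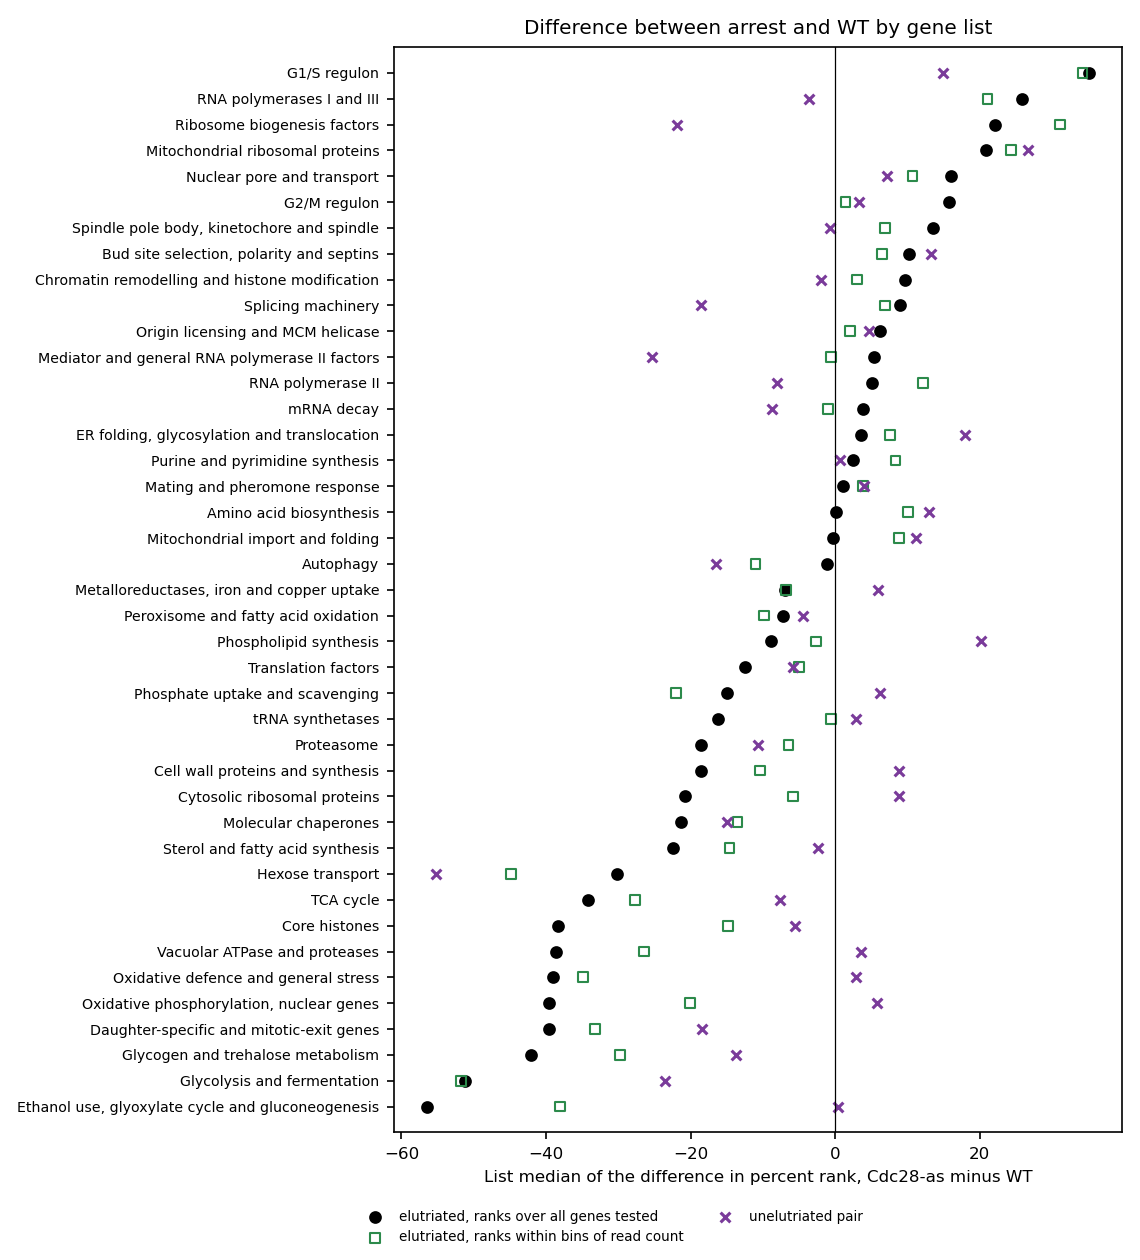
Median over each gene list of the difference in percent rank, Cdc28-as minus WT (x axis): filled circles for the elutriated series with ranks over all genes, open squares with ranks within bins of read count, and crosses for the unelutriated pair. Circles run from 35.1 for G1/S genes to -56.5 for ethanol-use genes, and the cross of ribosome biogenesis genes lies at -21.8.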

How the data were processed

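RNA-seq of 17 elutriated libraries was used as the authors' deposited table. It gives 1 score per gene and series, made by the authors, and a signal per gene that the authors deposited as the median read count of experiment 1. The sources used here do not give how the score was computed, the counting, the use of strand or the normalization; depth per library is unknown, so no counting interval could be given. Reads were aligned with Bowtie2 to R64, per the submitters' processing notes. Of 6713 identifiers 6022 matched an R64 locus tag; 4199 of the 4240 tested genes did, and promoters are the 250 bases before the annotated start of these genes.

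Scores were ranked within each series over the 4240 genes and tested with limma 3.58.1 in R 4.3.3 (moderated test of 3 arrest ranks against 1 WT rank, Benjamini-Hochberg adjustment, threshold 0.05); p-values measure only the spread between the arrest series, which may be technical. The limma step was tested on simulated data. The 42 lists are described by counts and medians, with python 3.11.15, pandas 2.3.3 and matplotlib 3.10.9.

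Members and lists were chosen with earlier results of these data known. Named are the 10 genes with the largest difference each way among those in opposite outer groups in all series, the 8 highest and 8 lowest in all 4 series, up to 4 members of each list (those with the largest difference in the list's direction, or nearest its medians where the median difference is under 10), and CDC28, the G1 cyclins, WHI5 and SIC1. Alternatives changed the read minimum, the scale, the ranked genes, tied scores and the series used.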

Additional observations from a re-analysis of the deposited data

Results flagged for a closer look

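Ribosome biogenesis genes had opposite differences in the elutriated and unelutriated cells. Their median difference in percent rank, Cdc28-as minus WT, was 22.8, 34.2 and 20.1 in the elutriated experiments 1 to 3 and -21.83 in the unelutriated pair. All 3 elutriated series lay on one side and the unelutriated series on the other. The scores behind the ranks differed as well: only 3.21% of genes scored above 0 in unelutriated Cdc28-as and 33.9% in unelutriated WT. The difference was not tested, since the unelutriated pair is 1 series of each genotype and the elutriated experiments share 1 WT series.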

How the results depend on the processing

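Several lists with a median difference under 10 either way changed sign in some settings. No list beyond 10 reversed, and no gene was called against WT, when all genes were ranked without a read minimum, on normal scores, without tied lowest scores, with genes of an R64 locus tag only (added after seeing the data), or without any one arrest experiment. On scores divided by their median absolute deviation, limma called 8 genes above WT and 999 below, and the sterol list had -26.5; the arrest-only calls were 116 high and 104 low on normal scores and 190 and 209 at 30 reads. At 30 reads the groups, in the order of the report (high in arrest only, high in WT only, high in both, low in both), held 253, 228, 285 and 272 genes, and with limits at 25% in place of 33.3% they held 262, 222, 294 and 260.0. List differences at 30 reads were cell wall -11.1, chromatin 5.69, ethanol use -51.6, chaperones -16.7, stress -28 and tRNA synthetases -2.7, and those that reversed were hexose transport 14.2 and phosphate uptake 1.36. Lists under 10 either way reached 36.4 for purine and pyrimidine synthesis, 22.6 for origin licensing, -21 for iron and copper, 17.1 for the endoplasmic reticulum, 16.3 for splicing and 13.4 for mRNA decay. Within read bins they were amino acids 10.1, autophagy -11, cell wall -10.4, chromatin 2.99, histones -14.9, ethanol use -38.1, storage -29.7, chaperones -13.5, oxidative phosphorylation -20.1, ribosome biogenesis 31.1, sterols -14.6, vacuole -26.5 and tRNA synthetases -0.629. With ranks over all scored genes they were amino acids -4.48, chaperones -25.3, ribosome biogenesis 14.7 and sterols -26.9. With the unelutriated pair added they were amino acids 7.05, autophagy -11.3, cell wall -3.66, chromatin 3.07, daughter-specific -23, ethanol use -39.6, G1/S 24.8, chaperones -7.65, stress -19.9, oxidative phosphorylation -15, sterols -14.7 and vacuole -13.3, and tRNA synthetases reversed to 4.43. Leaving out 1 arrest experiment gave amino acids from -1.19 to 5.41, autophagy from -10.6 to 3.998, chromatin from 4.87 to 13.2, daughter-specific genes from -39.8 to -29.2, chaperones from -20.5 to -16.9, sterols from -25.4 to -22.3 and tRNA synthetases from -16.9 to -5.58. The causes were not tested. No paired analysis was possible because each series has 1 score per gene, and the numbers that series share are points of size or time. Depth per library is unknown, and 1 WT series gives no spread for WT.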

Other observations

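Mating-type genes gave reads for both mating types in experiment 1. The a-specific genes MFA1, MFA2, STE2, STE6, BAR1 and AGA2 had medians of 53, 36, 31, 35.5, 10 and 37.5 reads. The alpha-specific genes MF(ALPHA)1, MF(ALPHA)2, STE3 and SAG1 had 26.5, 0, 14 and 8 reads. The labels used here give no mating type.

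Meiotic genes had reads as well, at 14 for IME1, the inducer of meiosis, 16.5 for NDT80, 4 for SPO11 and 1.5 for IME2. IME1 scored 0.0121, 0.0611 and -0.0205 per fl in arrest and 0.263 per hour in WT, and the arrest series did not share a sign.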
